A study of Mus musculus with 24 samples.

Results

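The 7 genes described here (Klf2, Klf3, Klf4, Klf6, Klf9, Klf10 and Klf13) encode Kruppel-like factors, and their rows were found by symbol among the 27179 genes of the deposited count tables. Their transcripts were measured by RNA-seq in mouse lymph node B cells on a C57BL/6 background, in 24 libraries that cover 3 stages, 4 genotypes and 2 replicates of each. Naive cells were compared with cells kept in culture for 48 h, either in CD40L + IL-4, which mimics T cell help, or in LPS + IL-4, which acts through TLR4. Control mice carried the Cd23-Cre transgene alone (Cd23T/+). PU.1 cKO mice carried it with floxed Spi1 alleles (Spi1fl/fl Cd23T/+). SpiB KO mice had floxed Spi1 but no Cre and lacked Spib in the germ line (Spi1fl/fl Cd23+/+ Spib-/-). Mice of the double knockout, PU.1 SpiB DKO, combined the floxed Spi1 alleles, the Cre and the Spib deletion (Spi1fl/fl Cd23T/+ Spib-/-). The Cre is driven by Cd23 regulatory sequences from the transitional B cell stage onward, so the Spi1 deletion was aimed at B cells while Spib was deleted in all cells of the mouse. The study treats Spi1 deletion as incomplete in naive cells of the double knockout, which limits them as a model of its loss. The study's methods call the 2 replicates biological, and the labels do not say whether they came from separate mice.

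Kruppel-like factors bind CACCC and GC-rich DNA through zinc fingers at their carboxy-terminal end and differ in the cofactors that they bring to a gene. KLF2 and KLF4 hold lymphocytes in a resting state, KLF2 also directs lymphocyte homing through genes such as S1pr1, and both are known to fall when lymphocytes are stimulated. KLF6 is a broadly expressed activator, KLF3 represses with the corepressor CtBP, and KLF9, KLF10 and KLF13 belong to the members that bind the corepressor Sin3A.

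Library totals ran from 9598674 to 73658850 counts, and the deepest library of the CD40L + IL-4 cultures (PU.1 cKO replicate 2) held 61640683 counts. Spib was lower by 3.83 to 5.50 on the log2 scale in PU.1 SpiB DKO at the 3 stages. Spi1 counts cover the whole gene, including exons outside the deleted part, and so check the deletion only in part. From read coverage, the study reports the floxed Spi1 exon as fully removed in CD40L + IL-4 cells and about as efficiently in LPS + IL-4 cells. In naive cells Spi1 stood at 155 to 174 CPM in control, 53.2 to 59.5 CPM for PU.1 cKO and 103 to 110.2 CPM for PU.1 SpiB DKO. The naive DKO was thus below control (log2 -0.63 ± 0.11, adjusted p = 0.00371) and above PU.1 cKO (log2 0.92 ± 0.11, adjusted p = 0.000571). After CD40L + IL-4 both genotypes were lower than control (log2 -1.24 ± 0.20 and -1.73 ± 0.21). In LPS + IL-4 cells PU.1 cKO was lower (log2 -0.63 ± 0.10), while the DKO, at 58.9 to 63.9 CPM, overlapped control at 60.7 to 72.0 CPM. Values of the naive DKO, and differences of its effect between stages, carry this difference in Spi1. The T cell gene Cd3e did not exceed 0.63 CPM in any library. In naive cells the 6 pDC markers summed to 1153 to 1583 CPM in the libraries without Spib against 279 to 364 CPM in control and PU.1 cKO. The 10 T cell markers, Cd8a and Cd4 among them, summed to 408 to 606 against 75.4 to 122 CPM, and the 8 macrophage markers to 51.4 to 72.9 against 13.2 to 25.1 CPM. Cells for RNA were sorted as CD3- B220+ CD138-, a gate meant to leave out T cells and plasma cells. The study proposes that SpiB represses genes of pDCs, macrophages and T cells within naive B cells. In naive SpiB KO, 4 of 9 tested T cell markers were higher, Cd4, Cd8a and Cd8b1 among them, where 9.62% of all genes were DE. Cd3d, Cd3g, Cd247 and Trbc2 were not DE in naive SpiB KO. In naive PU.1 SpiB DKO, 6 of 9 tested T cell markers were higher and 0 lower, with a median log2 difference of 1.51. In that comparison with control 21.2% of all genes were DE. Whether these markers came from B cells or from other cell types was not tested, nor was their part in the naive results below. The 6 plasma cell markers summed in LPS + IL-4 to 726 to 780 CPM in control, 1422 to 1539 CPM for PU.1 cKO and 1986 to 2074 CPM for PU.1 SpiB DKO. In CD40L + IL-4 these sums were 1338 to 1503, 2207 to 2384 and 2819 to 2973 CPM. Sdc1, which encodes CD138, was not DE after LPS + IL-4 in PU.1 cKO or PU.1 SpiB DKO (log2 -0.03 and -0.02). After CD40L + IL-4 it rose in both (log2 1.56 and 2.12). The part of the plasma cell markers in the results of the cultures was not tested. In CD40L + IL-4, PU.1 SpiB DKO replicate 1 also gave 6.64% of its counts to Rn45s, a ribosomal RNA. For naive control this share was 3.62% in replicate 1 and 0.19% in replicate 2. For LPS + IL-4 PU.1 cKO it was 0.83% in replicate 1 and 3.26% in replicate 2. Every other library gave at most 1.86%. In bulk RNA, fewer cells with a transcript and less of it per cell cannot be told apart.

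The 7 genes lie on 7 chromosomes (GRCm38, RefSeq): Klf2 at chr8:72319062-72321654, Klf3 at chr5:64803521-64832901, Klf4 at chr4:55527137-55532475, Klf6 at chr13:5861489-5870393, Klf9 at chr19:23141226-23168129, Klf10 at chr15:38291464-38300711 and Klf13 at chr7:63886351-63938915. Klf13 thus shares its chromosome with Spib, the gene deleted in the germ line of both Spib-/- genotypes. RefSeq promoter sequences of GRCm38.p6 were found for 6 of the 7 genes, all but Klf10. The 250 bases before the start of Klf6, the member with the largest fall after CD40L + IL-4 in control, and of Klf3 and Klf13, the pair that moved most alike, are printed 5′ to 3′ on the strand of the gene, with each GGAA, the core that ETS factors such as PU.1 and SpiB recognise, or its reverse complement TTCC in capitals.
Klf6 (plus strand, chr13:5861239-5861488): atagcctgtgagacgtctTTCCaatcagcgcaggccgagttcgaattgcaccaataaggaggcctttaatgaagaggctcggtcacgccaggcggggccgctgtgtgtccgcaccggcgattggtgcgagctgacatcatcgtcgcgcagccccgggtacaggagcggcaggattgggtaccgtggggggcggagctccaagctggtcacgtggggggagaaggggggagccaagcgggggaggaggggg
Klf3 (plus strand, chr5:64803271-64803520): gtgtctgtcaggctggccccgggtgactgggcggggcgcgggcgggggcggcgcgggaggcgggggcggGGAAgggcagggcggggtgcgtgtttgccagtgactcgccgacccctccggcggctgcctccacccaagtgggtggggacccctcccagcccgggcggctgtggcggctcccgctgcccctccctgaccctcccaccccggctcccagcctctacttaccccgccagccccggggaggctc
Klf13 (minus strand, chr7:63938916-63939165): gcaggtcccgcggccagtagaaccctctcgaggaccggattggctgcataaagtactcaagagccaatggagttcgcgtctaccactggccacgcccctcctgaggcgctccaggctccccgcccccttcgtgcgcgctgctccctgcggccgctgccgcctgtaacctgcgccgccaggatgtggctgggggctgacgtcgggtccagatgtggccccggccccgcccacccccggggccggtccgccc
Klf6 and Klf3 held 1 GGAA core each and Klf13 held 0, while 93.5% of 32841 promoters of this length held at least 1, with a median of 3. Among the promoters not printed, Klf2 and Klf4 held 1 core each and Klf9 held 3. The longer AGGAA was in 0 of the 6 promoters and in 60.3% of all promoters. These promoters were GC-rich, at 64.8% in Klf6, 78.4% in Klf3 and 71.6% in Klf13, against a median of 52.4% over all promoters. A match of letters in this window is a description and shows no binding.

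In resting control cells Klf2 was by far the most abundant member per length of transcript, and the stimulated cultures held less of most members. Deposited log2 RPKM of naive control cells was 9.04 and 9.07 for Klf2, 5.52 and 5.91 for Klf13, 5.77 and 5.38 for Klf6, 5.42 and 5.08 for Klf3, 2.22 and 2.39 for Klf10, 0.90 and 0.99 for Klf4, and -0.29 and -0.14 for Klf9. The values of Klf13, Klf6 and Klf3 overlapped, so their order is not resolved, while the steps from Klf2 to these 3 genes and from them to Klf10, Klf4 and Klf9 exceeded the spread of the pair of libraries. After LPS + IL-4 the order was Klf2 (6.12 and 5.26), Klf13 (3.53 and 3.30), Klf3 (3.21 and 3.12), Klf6 (2.61 and 2.62), Klf10 (1.81 and 1.79), Klf9 (0.27 and 0.51) and Klf4 (-1.78 and -2.26), with no overlap between neighbours. RPKM of the LPS + IL-4 libraries was normalized apart from that of the other libraries, so levels across the 2 sets are set side by side only.

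**Figure D1:**
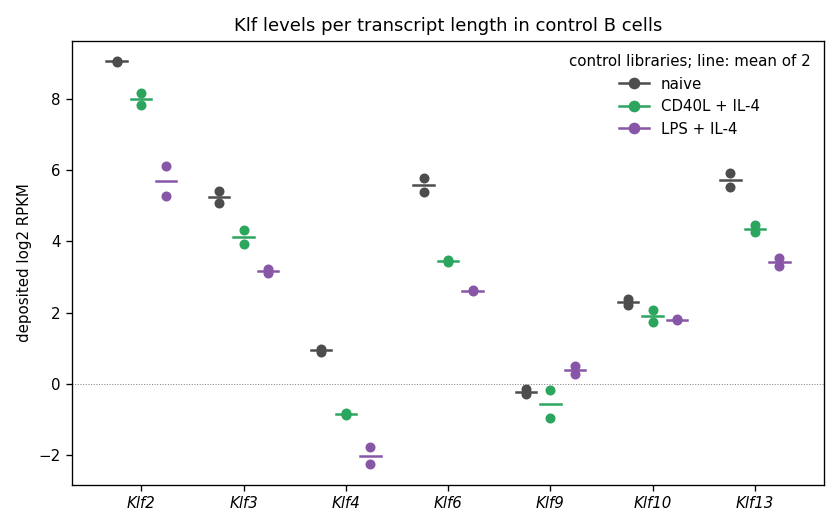
Deposited log2 RPKM of the 7 Klf genes in control libraries (points, 2 per stage; bars, mean) for naive cells, CD40L + IL-4 and LPS + IL-4. Klf2 stands highest at each stage, and the lowest member is Klf9 in naive cells (-0.29 and -0.14) and Klf4 after LPS + IL-4 (-1.78 and -2.26). The LPS + IL-4 libraries were normalized apart, so heights compare genes within a stage.

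Between control stages, levels were compared as CPM scaled over all 24 libraries, and a gene was called differentially expressed (DE) at an adjusted p under 0.15 and a fold change over 1.5. After CD40L + IL-4, 5 of the 7 members fell against naive cells and 0 rose, where 48.8% of all genes tested were DE. After LPS + IL-4, 5 fell and 1 rose against naive cells (63.9% of all genes DE), and 5 fell and 1 rose against CD40L + IL-4 (41.2% of all genes DE). The median log2 difference of the members was -1.20, -2.41 and -1.0 in these 3 comparisons, and that of all genes was within 0.01 of 0. Naive and LPS + IL-4 libraries came in one deposited table and CD40L + IL-4 libraries in another, so stage and table cannot be told apart for CD40L + IL-4, and CPM takes no account of the RNA content of a cell.

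Klf2 stood at 1119 and 1017 CPM in naive control cells, at 408 and 521 CPM after CD40L + IL-4 and at 121 and 69.1 CPM after LPS + IL-4. The fall was 1.20 ± 0.22 (SE) on the log2 scale after CD40L + IL-4 (edgeR, adjusted p = 0.000145) and 11.2-fold after LPS + IL-4 (log2 -3.49 ± 0.24, adjusted p = 2.19e-10), and the groups did not overlap. Klf6 went from 244 and 180 CPM to 49.0 and 46.6 CPM after CD40L + IL-4 and to 24.1 and 25.0 CPM after LPS + IL-4. Klf6 therefore had the largest fall after CD40L + IL-4 among the members (log2 -2.15 ± 0.15) and a further fall to LPS + IL-4 (log2 -0.96 ± 0.14 against CD40L + IL-4). Klf4, at 5.10 and 5.58 CPM in naive cells, was at 1.78 and 1.74 CPM after CD40L + IL-4 and 0.79 and 0.48 CPM after LPS + IL-4 (log2 -3.14 ± 0.48 against naive, adjusted p = 1.09e-05), from 17 to 75 counts per library. Its fall from CD40L + IL-4 to LPS + IL-4 had an adjusted p of 0.0245, and was no longer called without control replicate 2 of LPS + IL-4 (adjusted p = 0.192).

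The corepressor-binding members split. Klf3 fell from 100.2 and 78.6 CPM in naive cells to 48.5 and 35.6 CPM after CD40L + IL-4 and 20.4 and 19.1 CPM after LPS + IL-4 (log2 -1.09 ± 0.16 and -2.18 ± 0.16). Klf13 fell from 314 and 390 CPM to 129 and 137 CPM and to 70.5 and 62.4 CPM (log2 -1.40 ± 0.16 and -2.41 ± 0.16). Both genes were thus lowest after LPS + IL-4, with no overlap between stages. Klf9 was at 2.36 and 2.53 CPM in naive cells, 2.96 and 1.74 CPM after CD40L + IL-4 and 3.69 and 4.05 CPM after LPS + IL-4. It was the only member that rose, after LPS + IL-4 against naive cells (log2 0.67 ± 0.28, adjusted p = 0.0414) and against CD40L + IL-4 (log2 0.70 ± 0.29, adjusted p = 0.0522). The first was under the fold with voom (log2 0.52). The second of these was not called without replicate 2 of the CD40L + IL-4 control (adjusted p = 0.384) or of the LPS + IL-4 control (adjusted p = 0.194). Klf10 was DE between no pair of stages. It stood at 13.3 and 15.2 CPM in naive cells and 10.0 and 9.57 CPM after LPS + IL-4 (log2 -0.54 ± 0.19, adjusted p = 0.0146, fold 1.46, under the threshold of 1.5).

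**Figure D2:**
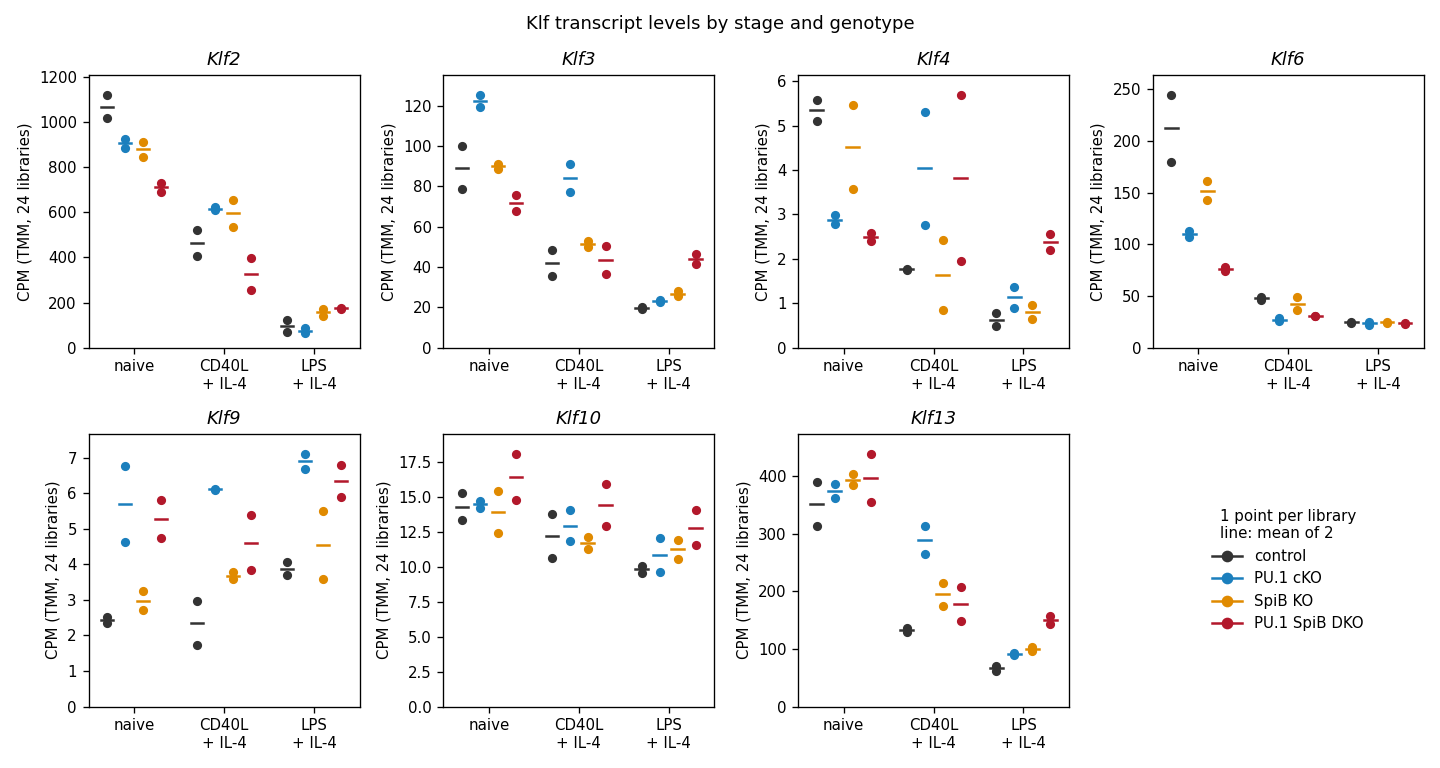
CPM of each Klf gene in all 24 libraries (TMM over 24 libraries, linear axes from 0; points, libraries; bars, mean of 2), by stage and genotype. The PU.1 SpiB DKO libraries sit below control for Klf6 in naive cells, at 74.3 and 78.1 against 180 and 244 CPM, and above control for Klf3, Klf4 and Klf13 after LPS + IL-4.

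Between genotypes, CPM was scaled over the 8 libraries of a stage, and the 3 comparisons with control at a stage share the same control pair. In naive cells, PU.1 cKO changed 3 members against control (Klf4 and Klf6 lower, Klf9 higher), where 10.7% of all genes were DE. SpiB KO changed 0 members where 9.62% of all genes were DE, with 2 members at an unadjusted p under 0.05 and 0 called by DESeq2. PU.1 SpiB DKO changed the same 3 members as PU.1 cKO against control, in the same directions (21.2% of all genes DE). Against PU.1 cKO it changed Klf3 (12.9% of all genes DE), and against SpiB KO it changed Klf6 (3.03% of all genes DE). The interaction, which asks whether the DKO departs from the sum of the single losses on the log2 scale, was called at an adjusted p under 0.15 with no fold threshold. SpiB KO alone lacked the Cre, and control alone lacked floxed Spi1. Effects of either enter the interaction and the comparisons with control or SpiB KO, and cannot be told apart there. The interaction passed for 0 of 7 members in naive cells and for 0.936% of all genes, with 1 member at an unadjusted p under 0.05 and 1 called by DESeq2.

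After CD40L + IL-4, PU.1 cKO changed 4 members against control (Klf3, Klf9 and Klf13 higher, Klf6 lower), where 13.5% of all genes were DE. SpiB KO changed 0 members where 0.134% of all genes were DE, with 1 member at an unadjusted p under 0.05 and 0 called by DESeq2. PU.1 SpiB DKO changed Klf6 (lower) and Klf9 (higher), where 18.3% of all genes were DE. Against PU.1 cKO it lowered Klf2, Klf3 and Klf13 (4.06% of all genes DE), and against SpiB KO it lowered Klf2 (15.3% of all genes DE). The interaction passed for Klf3 and Klf13, 2 of 7 members, against 1.17% of all genes.

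After LPS + IL-4, PU.1 cKO changed 1 member against control (Klf9, higher; 10.5% of all genes DE) and SpiB KO changed 1 (Klf13, higher; 3.19% of all genes DE). PU.1 SpiB DKO raised 5 of the 7 members (Klf2, Klf3, Klf4, Klf9 and Klf13) and lowered 0, where 20.2% of all genes were DE, 1702 of 12445 tested higher and 811 lower. It also raised 4 members against PU.1 cKO (Klf2, Klf3, Klf4 and Klf13; 12.6% of all genes DE) and 3 against SpiB KO (Klf3, Klf4 and Klf13; 12.8% of all genes DE). The interaction passed for 0 of 7 members and for 1.48% of all genes, with 1 member at an unadjusted p under 0.05 and 0 called by DESeq2. The median log2 difference of the 7 members between PU.1 SpiB DKO and control was -0.31 in naive cells, 0.24 after CD40L + IL-4 and 0.94 after LPS + IL-4, and that of all genes lay between 0.00 and 0.01.

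**Figure D3:**
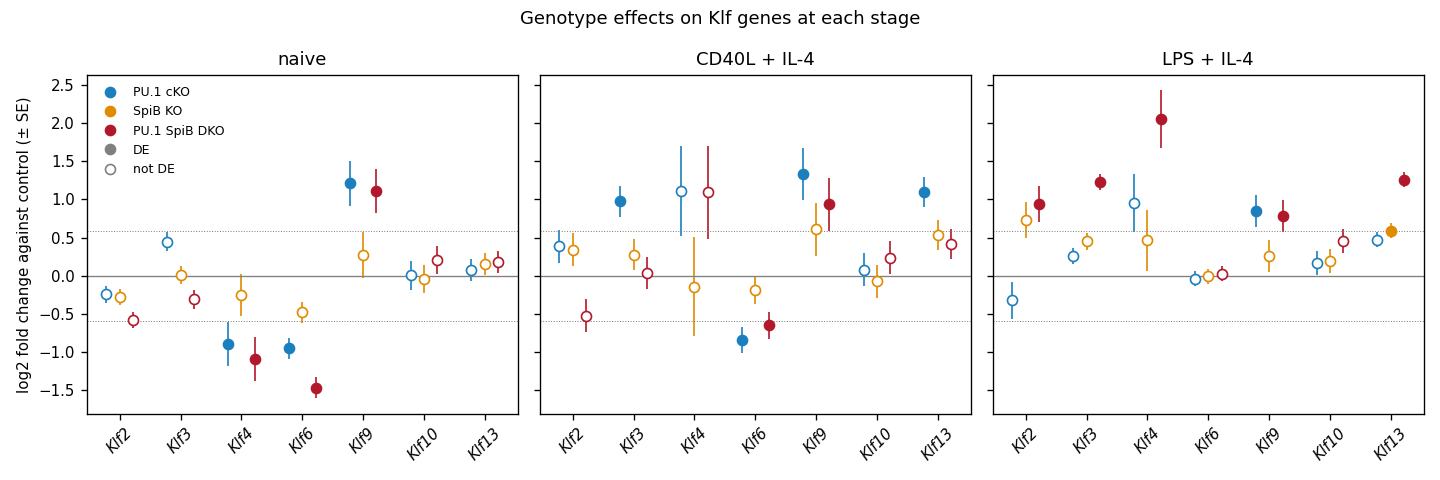
Log2 fold change of each Klf gene against control (edgeR, ± SE, 2 libraries per group) in PU.1 cKO, SpiB KO and PU.1 SpiB DKO at the 3 stages; filled points are DE and dotted lines mark the fold of 1.5. In PU.1 SpiB DKO, Klf6 lies at -1.46 in naive cells, -0.65 after CD40L + IL-4 and 0.03 after LPS + IL-4, and Klf3 and Klf13 lie at 1.23 and 1.26 after LPS + IL-4.

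Klf6 was the member with the largest fall in naive cells and was DE in no genotype after LPS + IL-4. Naive cells held 225 and 172 CPM in control, 105 and 100.1 CPM for PU.1 cKO, 151 and 134 CPM for SpiB KO and 74.2 and 69.6 CPM for PU.1 SpiB DKO. The 4 genotypes did not overlap, and both PU.1 cKO (log2 -0.95 ± 0.14, adjusted p = 0.00406) and PU.1 SpiB DKO (log2 -1.46 ± 0.14, a fall of 2.76-fold, adjusted p = 0.000151) were lower than control. SpiB KO passed the test but not the fold threshold (log2 -0.48 ± 0.14, adjusted p = 0.0800), and the interaction was -0.04 ± 0.19 (adjusted p = 0.961). In CD40L + IL-4 cells, Klf6 was at 50.7 and 47.7 CPM in control, 28.9 and 26.2 CPM for PU.1 cKO, 49.6 and 36.7 CPM for SpiB KO and 31.1 and 31.7 CPM for PU.1 SpiB DKO. Both genotypes with floxed Spi1 and Cre were below control without overlap (log2 -0.84 ± 0.17 and -0.65 ± 0.18, adjusted p = 0.0130 and 0.0338), while DKO and PU.1 cKO were not shown to differ (log2 0.19 ± 0.18). The call in PU.1 SpiB DKO was lost, at an adjusted p of 0.151, without control replicate 1. After LPS + IL-4 all 8 libraries lay between 23.3 and 26.2 CPM, and the log2 difference of each mutant from control lay between -0.04 and 0.03 with SE of 0.10 at most. The effect of the DKO on Klf6 was larger (more negative) in naive cells than after CD40L + IL-4, by 0.84 ± 0.20 (adjusted p = 0.0114), or LPS + IL-4, by 1.43 ± 0.20 (adjusted p = 7.93e-05), in a fit of all libraries.

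Klf2, the member tied most closely to B cell homing and rest, stood below control in naive PU.1 SpiB DKO cells and above it after LPS + IL-4. In naive cells it stood at 1029 and 973 CPM in control, 826 and 864 CPM for PU.1 cKO, 856 and 792 CPM for SpiB KO and 695 and 646 CPM for PU.1 SpiB DKO. The DKO was below every other library and differed from control at an adjusted p of 0.00544 (log2 -0.58 ± 0.11), but its fold of 1.49 was just under 1.5, so the gene was not DE. With DESeq2 size factors in edgeR (log2 -0.59) or with DESeq2 itself the fold passed. In CD40L + IL-4 cells it stood at 423 and 533 CPM in control, 621 and 628 CPM for PU.1 cKO, 669 and 545 CPM for SpiB KO and 406 and 260 CPM for PU.1 SpiB DKO. Both single mutants stood above control, though neither was DE (log2 0.39 ± 0.22 and 0.34 ± 0.22). The DKO stood below (log2 -0.52 ± 0.22, adjusted p = 0.143, fold under 1.5). PU.1 SpiB DKO fell below PU.1 cKO (log2 -0.91 ± 0.22, adjusted p = 0.0703) and SpiB KO (log2 -0.87 ± 0.22, adjusted p = 0.0299), and the interaction of -1.25 ± 0.31 just missed the threshold (adjusted p = 0.151). The fall against PU.1 cKO lost the call without either PU.1 cKO replicate or DKO replicate 2 (adjusted p = 0.215 to 0.404), and that against SpiB KO without SpiB KO replicate 1 or DKO replicate 2 (adjusted p = 0.179 and 0.222). After LPS + IL-4 Klf2 stood at 127 and 69.9 CPM in control, 88.8 and 67.5 CPM for PU.1 cKO, 147 and 178 CPM for SpiB KO and 191 and 185 CPM for PU.1 SpiB DKO. The DKO rose 1.92-fold above control (log2 0.94 ± 0.24, adjusted p = 0.0137) and 2.40-fold above PU.1 cKO (log2 1.26 ± 0.24, adjusted p = 0.00816), without overlap. The control pair differed more than any other, and the rise over control was 0.57 on the log2 scale without control replicate 2 and 1.42 without replicate 1. SpiB KO was also above control (log2 0.73 ± 0.24, adjusted p = 0.190) and became DE with the replicate block (log2 0.77 ± 0.19, adjusted p = 0.0373). The DKO effect on Klf2 was higher after LPS + IL-4 than in naive cells by 1.46 ± 0.31 (adjusted p = 0.00343) and than after CD40L + IL-4 by 1.39 ± 0.31 (adjusted p = 0.00701).

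Klf4 was read from few counts, 10 to 169 per library, and its direction in PU.1 SpiB DKO also turned between naive and LPS + IL-4 cells. Naive cells held 4.69 and 5.33 CPM in control, 2.80 and 2.59 CPM for PU.1 cKO, 5.12 and 3.34 CPM for SpiB KO and 2.28 and 2.42 CPM for PU.1 SpiB DKO. It fell in PU.1 cKO (log2 -0.89 ± 0.29, adjusted p = 0.100) and in PU.1 SpiB DKO (log2 -1.09 ± 0.29, adjusted p = 0.0281). The first of these was not called by DESeq2 (adjusted p = 0.158), in the fit of 24 libraries (adjusted p = 0.239) or without naive control replicate 2 or either PU.1 cKO replicate (adjusted p = 0.276 to 0.317). Naive PU.1 SpiB DKO and SpiB KO were not DE for Klf4 (adjusted p = 0.243) or Klf9 (adjusted p = 0.233), and both genes were DE with the replicate block (log2 -0.83 ± 0.29, adjusted p = 0.145, and 0.82 ± 0.27, adjusted p = 0.122). In the CD40L + IL-4 culture the pairs were far apart, at 5.41 and 2.78 CPM for PU.1 cKO and 5.83 and 2.00 CPM for PU.1 SpiB DKO against 1.84 and 1.78 CPM in control and 2.46 and 0.87 CPM for SpiB KO. No comparison was DE there. After LPS + IL-4 the level was 0.82 and 0.49 CPM in control, 1.42 and 0.94 CPM for PU.1 cKO, 0.98 and 0.67 CPM for SpiB KO and 2.79 and 2.35 CPM for PU.1 SpiB DKO. Both DKO libraries stood above all others, 4.15-fold above control (log2 2.05 ± 0.38, adjusted p = 0.00298) and 2.14-fold above PU.1 cKO (adjusted p = 0.0477). The second rise lost the call without PU.1 cKO replicate 2 or DKO replicate 1 (adjusted p = 0.249 and 0.214). The gene's mean deposited log2 RPKM at this stage was below 0, so a threshold on RPKM would remove these calls. PU.1 cKO was DE as well with the replicate block (log2 0.89 ± 0.31, adjusted p = 0.0730). The DKO effect was higher than in naive cells by 3.07 ± 0.65 after LPS + IL-4 (adjusted p = 0.00325) and by 2.20 ± 0.67 after CD40L + IL-4 (adjusted p = 0.0453), and the latter fell to 1.25 (adjusted p = 0.329) without DKO replicate 1 of CD40L + IL-4.

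Klf3, the CtBP-binding repressor, rose in PU.1 cKO in one culture and in PU.1 SpiB DKO in the other. In naive cells it stood at 92.2 and 75.2 CPM in control, 112 and 117 CPM for PU.1 cKO, 85.4 and 83.4 CPM for SpiB KO and 64.5 and 70.8 CPM for PU.1 SpiB DKO. PU.1 cKO lay above and the DKO below control, neither DE (log2 0.45 ± 0.12 and -0.31 ± 0.12), and the DKO fell 1.69-fold below PU.1 cKO (log2 -0.76 ± 0.12, adjusted p = 0.00336). The interaction was -0.77 ± 0.17 (adjusted p = 0.152) and passed with the replicate block (adjusted p = 0.0298). Cells in CD40L + IL-4 held 50.2 and 36.4 CPM in control, 93.0 and 77.8 CPM for PU.1 cKO, 51.2 and 53.8 CPM for SpiB KO and 51.6 and 37.3 CPM for PU.1 SpiB DKO. Only PU.1 cKO stood apart, 1.97-fold above control (log2 0.98 ± 0.20, adjusted p = 0.0138) and 1.92-fold above the DKO (adjusted p = 0.0471), and the interaction passed at -1.22 ± 0.29 (adjusted p = 0.141). The difference from the DKO lost the call without PU.1 cKO replicate 1 or DKO replicate 2 (adjusted p = 0.214 and 0.282). The interaction lost it without control replicate 2, DKO replicate 2 or any PU.1 cKO or SpiB KO library (adjusted p = 0.176 to 0.436). After LPS + IL-4 it stood at 21.2 and 19.3 CPM in control, 24.7 and 23.6 CPM for PU.1 cKO, 28.9 and 26.2 CPM for SpiB KO and 50.4 and 44.5 CPM for PU.1 SpiB DKO. The DKO was above all other libraries, 2.35-fold above control (log2 1.23 ± 0.11, adjusted p = 5e-05), 1.96-fold above PU.1 cKO (adjusted p = 0.000873) and 1.72-fold above SpiB KO (adjusted p = 0.00120). The interaction there was 0.52 ± 0.15 (adjusted p = 0.233), and passed with the replicate block (adjusted p = 0.0356). The DKO effect was higher after LPS + IL-4 than in naive cells by 1.48 ± 0.22 (adjusted p = 0.000174) and than after CD40L + IL-4 by 1.11 ± 0.23 (adjusted p = 0.00406). That of PU.1 cKO was lower after LPS + IL-4 than after CD40L + IL-4 by 0.76 ± 0.23 (adjusted p = 0.130).

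Klf13, which binds Sin3A, followed Klf3 in the cultures but not in naive cells. All naive libraries lay between 289 and 411 CPM, with no mutant DE (log2 0.08 to 0.18 against control, SE 0.14). After CD40L + IL-4 control held 133 and 140.0 CPM, PU.1 cKO 320 and 267 CPM, SpiB KO 219 and 178 CPM and PU.1 SpiB DKO 213 and 152 CPM. All 3 mutants lay above control without overlap, but only PU.1 cKO was DE (log2 1.10 ± 0.19, 2.14-fold, adjusted p = 0.00539), and SpiB KO (log2 0.54 ± 0.19) and the DKO (log2 0.42 ± 0.19) were not. The DKO fell below PU.1 cKO (log2 -0.68 ± 0.19, adjusted p = 0.124), with an interaction of -1.22 ± 0.27 (adjusted p = 0.122). Neither call held without PU.1 cKO replicate 1 or DKO replicate 2, nor did the fall without PU.1 cKO replicate 2 (adjusted p = 0.223 to 0.588), or the interaction without either control replicate or SpiB KO replicate 1 (adjusted p = 0.242 to 0.325). After LPS + IL-4 control held 73.5 and 63.1 CPM, PU.1 cKO 96.5 and 92.5 CPM, SpiB KO 99.8 and 106 CPM and PU.1 SpiB DKO 172 and 155 CPM. The 4 genotypes did not overlap, and the DKO rose 2.39-fold above control (log2 1.26 ± 0.10, adjusted p = 2.54e-05), 1.73-fold above PU.1 cKO (adjusted p = 0.00143) and 1.59-fold above SpiB KO (adjusted p = 0.00168), the last of these under the fold without DKO replicate 1 (log2 0.58). SpiB KO rose 1.51-fold above control (log2 0.59 ± 0.10, adjusted p = 0.0156) and PU.1 cKO passed the test at a fold of 1.39 (adjusted p = 0.0124). The rise in SpiB KO lost the call without control replicate 2 (log2 0.49) or SpiB KO replicate 2 (log2 0.55), where its fold was under 1.5. The interaction was 0.19 ± 0.14 (adjusted p = 0.652). The DKO effect was higher after LPS + IL-4 than in naive cells by 1.01 ± 0.22 (adjusted p = 0.00399) and than after CD40L + IL-4 by 0.76 ± 0.22 (adjusted p = 0.0263, and 0.157 without DKO replicate 2 of CD40L + IL-4). That of PU.1 cKO was higher after CD40L + IL-4 than in naive cells by 1.03 ± 0.22 (adjusted p = 0.0108).

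Klf9 was the member that rose in PU.1 cKO and in PU.1 SpiB DKO at every stage, at low levels of 17 to 547 counts per library. In naive cells it stood at 2.17 and 2.42 CPM in control, 4.33 and 6.32 CPM for PU.1 cKO, 3.03 and 2.53 CPM for SpiB KO and 4.49 and 5.43 CPM for PU.1 SpiB DKO. After CD40L + IL-4 the values were 3.07 and 1.78, 6.21 and 6.17, 3.84 and 3.64, and 5.50 and 3.91 CPM, and after LPS + IL-4 they were 3.85 and 4.10, 7.38 and 6.97, 5.69 and 3.69, and 7.37 and 6.33 CPM, for these genotypes in this order. The libraries of both genotypes with floxed Spi1 and Cre lay above both control libraries at each stage. PU.1 cKO rose by 1.21 ± 0.29, 1.33 ± 0.33 and 0.85 ± 0.21 on the log2 scale in naive, CD40L + IL-4 and LPS + IL-4 cells (adjusted p = 0.0399, 0.0319 and 0.0276). PU.1 SpiB DKO rose by 1.11 ± 0.29, 0.93 ± 0.35 and 0.78 ± 0.21 (adjusted p = 0.0268, 0.105 and 0.0184). SpiB KO was not DE at any stage (log2 0.28 ± 0.30, 0.61 ± 0.35 and 0.26 ± 0.21), and DKO and PU.1 cKO were not shown to differ, with log2 differences of -0.40 to -0.07. The rise in the CD40L + IL-4 DKO was not called by DESeq2 (adjusted p = 0.165), by voom (adjusted p = 0.168) or without control replicate 2 (adjusted p = 0.325) or DKO replicate 1 (adjusted p = 0.345). That in PU.1 cKO lost the call without control replicate 2 (adjusted p = 0.181) or PU.1 cKO replicate 2 (adjusted p = 0.156), the deepest library of that culture. In naive cells the rise in PU.1 cKO lost the call without PU.1 cKO replicate 2 (adjusted p = 0.237), and after LPS + IL-4 voom put the rise in the DKO under the fold of 1.5 (log2 0.54).

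Klf10, a Sin3A-binding member induced by TGF-beta, was DE in 0 of the 15 comparisons between genotypes. Its 24 libraries lay between 9.68 and 17.2 CPM, and the log2 differences from control lay between -0.07 and 0.46. The highest of them, in LPS + IL-4 PU.1 SpiB DKO (12.5 and 15.1 CPM against 10.5 and 9.68 CPM), passed the test at a fold of 1.37 (log2 0.46 ± 0.16, adjusted p = 0.0525).

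Differences of the genotype effect between stages were tested at an adjusted p under 0.15 in the fit of all 24 libraries. The DKO effect was higher after LPS + IL-4 than in naive cells for 5 members, where 29.6% of all genes differed, and than after CD40L + IL-4 for 4 members (28.6%). It was higher after CD40L + IL-4 than in naive cells for Klf4 and Klf6 (16.8%). The effect of PU.1 cKO differed between CD40L + IL-4 and naive cells for Klf4 and Klf13 (9.05% of all genes), between LPS + IL-4 and naive cells for Klf6 (6.34%; 0.89 ± 0.20, adjusted p = 0.020), and between the 2 cultures for Klf3 and Klf6 (3.09%). The effect of SpiB KO differed between LPS + IL-4 and naive cells for Klf2 (5.65% of all genes), by 1.01 ± 0.31 (adjusted p = 0.113). The same libraries enter several of these differences.

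Among the other Klf genes of the tables, 10 in number, 5 passed the filter at each stage. In naive PU.1 SpiB DKO cells, where 21.2% of all genes were DE, 2 of these 5 rose, Klf11 (18.5 to 22.9 CPM against 11.3 to 15.9 CPM in control, log2 0.61 ± 0.19) and Klf12 (7.32 to 8.27 against 3.77 to 4.06 CPM, log2 0.99 ± 0.27). After CD40L + IL-4, where 18.3% of all genes were DE, 0 of 5 were DE. After LPS + IL-4 (20.2% of all genes DE) 3 of 5 rose, Klf11 (log2 0.81), Klf12 (log2 1.06) and Klf8 (log2 0.85), none fell, and the median of the 5 was 0.81 against 0.01 over all genes. The summed level of the 10 genes did not rise, at 83.9 to 87.4 CPM in the LPS + IL-4 DKO and 84.6 to 89.2 CPM in control. In naive cells this sum was 96.1 to 99.4 CPM in the DKO and 103 to 125 CPM in control. Klf11 was not DE in naive cells without control replicate 1 or DKO replicate 1 (log2 0.37 and 0.45), nor after LPS + IL-4 without control replicate 2 (log2 0.50). Klf12 was not DE after LPS + IL-4 without control replicate 2 or DKO replicate 1 (log2 0.65 and 0.75). Klf8 was not followed under other settings or with libraries left out. KLF11 also binds Sin3A, and KLF8 and KLF12, like KLF3, bind CtBP.

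Of genes known to depend on KLF2 in lymphocytes, S1pr1 (the receptor for egress from lymphoid tissue) and Itgb7 (an integrin chain for gut homing) were both lower in stimulated control cells. They fell by 1.86 and 2.75 on the log2 scale after CD40L + IL-4. After LPS + IL-4 they fell by 3.56 and 4.63. In naive cells neither was DE in PU.1 SpiB DKO (log2 -0.01 ± 0.13 and -0.05 ± 0.12), and neither was DE after CD40L + IL-4 (log2 -0.37 ± 0.34 and -0.66 ± 0.32). After LPS + IL-4 S1pr1 rose in the DKO (93.6 to 97.8 against 30.4 to 53.7 CPM in control, log2 1.20 ± 0.22, adjusted p = 0.00295). Itgb7 rose as well (33.4 to 39.1 against 16.4 to 24.3 CPM, log2 0.84 ± 0.20, adjusted p = 0.0112), and was under the fold without control replicate 2 (log2 0.57). In SpiB KO, S1pr1 and Itgb7 also rose after LPS + IL-4, to 81.3 to 97.3 and 43.3 to 57.7 CPM, where Klf2 was at 147 and 178 CPM.

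A list of 30 genes tied to quiescence or cell cycle arrest was followed in the same fits, since KLF2 and KLF4 hold lymphocytes at rest. In control cells 15 of 30 fell and 3 rose after CD40L + IL-4, where 48.8% of all genes were DE. After LPS + IL-4, 21 fell and 2 rose, where 63.9% of all genes were DE. The median log2 differences were -0.66 and -1.55 against 0.00 and 0.01 over all genes. Against naive cells the marker genes of division rose in 10 of 10 cases in each culture. Between PU.1 SpiB DKO and control, 3 of 30 rose and 6 fell in naive cells, where 21.2% of all genes were DE. After CD40L + IL-4, 2 rose and 11 fell (18.3% of all genes DE), and after LPS + IL-4, 12 of 29 tested rose and 1 fell (20.2% of all genes DE). The median log2 differences were -0.26, -0.42 and 0.43. After CD40L + IL-4 the number that fell was 5 without control replicate 1 and 4 without DKO replicate 2, and in naive cells it was 3 without DKO replicate 1. The 10 division genes summed to 4090 to 4477 CPM in the LPS + IL-4 DKO and 3882 to 4227 CPM in control, with a median log2 difference of -0.04. None of the 10 was DE by edgeR there, though 3 passed the adjusted p under the fold of 1.5, among them Pcna (log2 -0.32 ± 0.08) and Mcm5 (log2 -0.30 ± 0.09).

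The genes of this list that were DE in 1 direction at 2 or more stages differed in pattern. Cdkn1a, which encodes the CDK inhibitor p21, rose at all 3 stages (log2 0.99 ± 0.32, 1.09 ± 0.24 and 1.02 ± 0.14), from 1.42 to 2.24 CPM to 3.51 to 3.79 CPM in naive cells and from 8.17 to 8.57 CPM to 15.8 to 18.2 CPM after LPS + IL-4. Slfn2, needed for T cell quiescence, fell at all 3 stages (log2 -0.86 ± 0.12, -0.93 ± 0.26 and -0.82 ± 0.09). Cdkn2c, for the CDK inhibitor p18, and Mxd4, a MYC antagonist, rose in naive cells and after LPS + IL-4 (log2 1.13 and 0.99, and 0.68 and 1.52). Foxo1, the transcription factor that holds B cells in G0, rose in both cultures (log2 0.66 ± 0.17 and 1.31 ± 0.09). In naive cells Foxo1 was not DE and stood below control (log2 -0.42). Foxp1, Tsc1, Zfp36l1 and Bach2 fell in naive cells and after CD40L + IL-4, by 0.66 to 0.86 and 0.61 to 0.96 on the log2 scale, and none of them was DE after LPS + IL-4. In naive cells Cdkn1a was not called by voom (adjusted p = 0.206) or without control replicate 2 or either DKO replicate (adjusted p = 0.158 to 0.242). Foxp1 and Tsc1 were not called without control replicate 2 (log2 -0.28 and -0.42) or DKO replicate 1. Bach2 without either of these (log2 -0.54 and -0.55) and Mxd4 without DKO replicate 2 (log2 0.56) were under the fold. After CD40L + IL-4, Slfn2 was not called without control replicate 2 (log2 -0.58) or DKO replicate 2 (log2 -0.65), nor Foxp1 without control replicate 1 (log2 -0.75) or DKO replicate 2 (log2 -0.53). Foxo1 there was under the fold without control replicate 2 (log2 0.47) or DKO replicate 1 (log2 0.57). Zfp36l1 was not called without DKO replicate 2 (log2 -0.54), and Tsc1 without control replicate 1 or either DKO replicate (log2 -0.65 to -0.45).

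**Figure D4:**
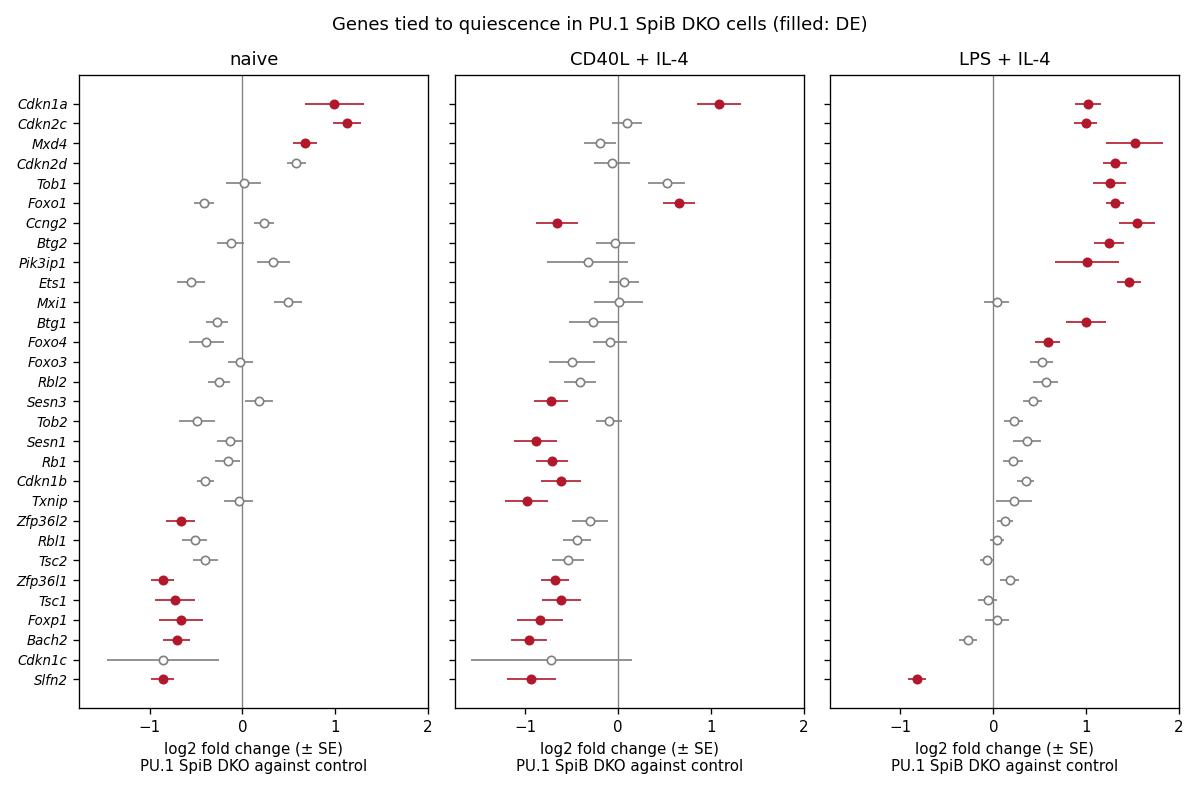
Log2 fold change (± SE) between PU.1 SpiB DKO and control for the 30 genes of the quiescence list at the 3 stages; filled red points are DE. Red points lie on both sides of 0 in naive cells, mostly below 0 after CD40L + IL-4 (11 lower, 2 higher) and mostly above 0 after LPS + IL-4 (12 higher, 1 lower).

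Across the 24 libraries, with the mean of each stage removed from log2 CPM, Klf3 and Klf13 were the members most alike (r = 0.79), followed by Klf2 and Klf3 (r = 0.64). Klf6 correlated at -0.11 with Klf3 and at -0.34 with Klf13. These values are descriptions over libraries that share genotypes, and carry no test. Among 8726 genes with a mean of at least 10 CPM, those most like Klf2 were Rdh12 (r = 0.93), Ctdsp2 (r = 0.91) and Add3 (r = 0.89). Those most like Klf3 were Gpd1l, Arel1 and Pcmtd1 (r = 0.84 to 0.90). Those nearest Klf13 were Rasgrp2, Scml4 and Osbpl5 (r = 0.87 to 0.89), and those most like Klf6 were Ank, Mef2c and Sfmbt1 (r = 0.85 to 0.89). For Klf10 they were Ssbp4, Gnas and Dapk3 (r = 0.78 to 0.85), and Klf4 and Klf9 were under 10 CPM.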

How the data were processed

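RNA-seq reads of 24 libraries were aligned by the authors to GRCm38/mm10 with Subread and counted per gene with featureCounts. Raw counts per gene were deposited by the authors, and log2 RPKM values, quantile normalized with voom in limma, were deposited per library and used only to set levels of different genes side by side. Entries with no symbol (517, holding 0.162% of counts) named no gene. Counts were analysed with edgeR 4.0.16 in R 4.3.3 (quasi-likelihood test, TMM), keeping genes that reached 0.5 CPM in 2 or more libraries. Genotypes were compared in 1 fit of the 8 libraries of a stage, and stages, and differences of genotype effects between stages, in 1 fit of 24 libraries. DE meant a Benjamini-Hochberg adjusted p under 0.15 over all genes tested and a fold change over 1.5, and interactions had no fold threshold. Errors are SE of the log2 fold change. DESeq2 1.42.0, voom (limma 3.58.1), other filters and thresholds, a replicate block and the omission of each library were tried. The test was also run on simulated counts with the same spread for every gene, no pairing and changes only in well-counted genes. That setting is simpler than these libraries and does not cover members with few counts.

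The replicate number may pair libraries. Over 6 pairs of genotypes, deviations of same-numbered libraries correlated at 0.17 to 0.38 in naive cells and 0.42 to 0.60 after LPS + IL-4. After CD40L + IL-4 these deviations correlated at -0.05 to 0.40. The main fits held no replicate block at any stage, so their p-values take no account of a possible pairing. The block was tried only as another setting, in naive, CD40L + IL-4 and LPS + IL-4 cells. The labels do not state a pairing.

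Named genes were the 7 members, other Klf genes DE in PU.1 SpiB DKO against control, genes known to depend on KLF2 (1 of 3 is not reported here), quiescence genes DE against control in 1 direction at 2 or more stages, and the 3 genes most correlated with each member at 10 CPM or more. Pcna and Mcm5 were named after their values were seen. The members and lists were chosen with earlier results of these data known. Summed marker levels are CPM over fixed lists for T cells, B cells, pDCs, macrophages, plasma cells and division; macrophage markers summed to at most 72.9 CPM and B cell markers to at least 8138 CPM in every library.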

Additional observations from a re-analysis of the deposited data

Results flagged for a closer look

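Each of the following values is a difference between groups that passed a test of the difference itself in edgeR (adjusted p under 0.15), and none of the groups, of 2 libraries each, could be tested for a library far from the others. After CD40L + IL-4, the loss of both factors departed from the sum of the single losses by -1.22 on the log2 scale for Klf3 (adjusted p = 0.141) and by -1.22 for Klf13 (adjusted p = 0.122). This contrast also holds any effect of the Cre, absent in SpiB KO, and of floxed Spi1, absent in control.

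The effect of PU.1 SpiB DKO was higher after LPS + IL-4 than in naive cells for Klf2 by 1.46 on the log2 scale, for Klf3 by 1.48, for Klf4 by 3.07, for Klf6 by 1.43 and for Klf13 by 1.01. It was higher after LPS + IL-4 than after CD40L + IL-4 for Klf2 by 1.39, for Klf3 by 1.11, for Klf6 by 0.591 and for Klf13 by 0.761. For Klf6 the adjusted p was 0.0585, and 0.155 without DKO replicate 1 of LPS + IL-4. The DKO effect was higher after CD40L + IL-4 than in naive cells for Klf4 by 2.2 and for Klf6 by 0.839, and for Klf4 this was lost without DKO replicate 1 of CD40L + IL-4 (adjusted p = 0.329).

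For PU.1 cKO, the effect was higher after CD40L + IL-4 than in naive cells for Klf4 by 2 (adjusted p = 0.104) and for Klf13 by 1.03, and higher after LPS + IL-4 than in naive cells for Klf6 by 0.89. Between LPS + IL-4 and CD40L + IL-4 it differed by -0.759 for Klf3 (adjusted p = 0.13) and by 0.763 for Klf6 (adjusted p = 0.0849). The effect of SpiB KO on Klf2 was higher after LPS + IL-4 than in naive cells by 1.01 (adjusted p = 0.113). Of the 8 libraries left out in turn, the omission of 6 ended the call for Klf4, of 7 that for Klf3, of 5 that for Klf6 between the cultures, and of 6 that for Klf2 in SpiB KO.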

How the results depend on the processing

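With 2 libraries a group, single libraries decided many calls. Of 491 values of called members under other settings, 466 kept direction and call, 25 lost the call and 0 turned direction, and of 348 with a library left out 66 lost the call. Signs were not followed for genes that never passed the adjusted p. With DESeq2 the members called were 1 for the naive interaction, 1 for CD40L + IL-4 DKO against control and 2 for the PU.1 cKO effect between LPS + IL-4 and naive cells. With voom they were 1 for CD40L + IL-4 DKO against control, 0 for its interaction and 2 for LPS + IL-4 SpiB KO against control. Without the filter they were 1 for the naive and 1 for the LPS + IL-4 interaction, 2 for CD40L + IL-4 DKO against SpiB KO, 2 for LPS + IL-4 PU.1 cKO, 2 for LPS + IL-4 SpiB KO, 2 and 4 for the PU.1 cKO effect between LPS + IL-4 and naive or CD40L + IL-4 cells, and 1 for the SpiB KO effect between CD40L + IL-4 and naive cells. At an adjusted p under 0.05 they were 1 for CD40L + IL-4 DKO against control, 1 against PU.1 cKO and 0 for the interaction, 1 and 0 for the PU.1 cKO effect between CD40L + IL-4 and naive and between the cultures, and 0 for the SpiB KO effect between LPS + IL-4 and naive. In 1 fit of 24 libraries they were 2 for naive DKO against SpiB KO, 1 for the naive interaction and 2 for CD40L + IL-4 DKO against SpiB KO. The cause was not tested.

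With the replicate block they were 3 for naive DKO against SpiB KO, 1 for the naive interaction, 2 for CD40L + IL-4 DKO against SpiB KO, 2 for LPS + IL-4 PU.1 cKO, 2 for LPS + IL-4 SpiB KO, 1 for the LPS + IL-4 interaction and 2 for the PU.1 cKO effect between LPS + IL-4 and naive. After CD40L + IL-4 the block called Klf4 in PU.1 cKO (log2 1.13) and DKO (log2 0.99) and the interaction of Klf2 (adjusted p = 0.0746).

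With a library left out, members called ranged from 1 to 4 for naive PU.1 cKO, 0 to 1 for naive SpiB KO and the naive interaction, 1 to 4 for CD40L + IL-4 DKO against control, 0 to 3 against PU.1 cKO, 0 to 2 against SpiB KO and 0 to 3 for its interaction. They ranged from 1 to 3 for LPS + IL-4 PU.1 cKO, 0 to 2 for SpiB KO and 0 to 2 for the interaction, from 1 to 2 for the PU.1 cKO and the DKO effect between CD40L + IL-4 and naive, 0 to 1 for the PU.1 cKO effect between the cultures and 0 to 1 for the SpiB KO effect between LPS + IL-4 and naive. Quiescence genes that fell in the DKO ranged from 3 to 8 in naive cells and from 4 to 12 after CD40L + IL-4, those that rose there from 1 to 3, and those higher in control after LPS + IL-4 than CD40L + IL-4 from 0 to 1. Among values without a call, 2 turned direction, S1pr1 in the CD40L + IL-4 DKO (-0.97 to 0.0625 on the log2 scale) and Klf2 in LPS + IL-4 PU.1 cKO (-0.69 to 0.17).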
